A study of Mus musculus with 25 samples.

Results

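Interferon-stimulated genes were followed in RAW 264.7 cells, a mouse macrophage-like line grown from a tumour induced by Abelson leukaemia virus, over a series of doses of hypochlorous acid (HOCl), which neutrophils produce through myeloperoxidase. The set was named by symbol, older symbols allowed, and holds 37 genes. Of these, 33 had a probe set that the array annotation ties to that gene alone, out of 18193 genes with such a probe set, and each was read from the brightest one over the 25 arrays. Isg15 and Ifi205 lie only on probe sets annotated with several symbols, and no probe set of Oas1g or Ifi44 was named in the table used here, so these 4 have no value below.

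All cultures were of this 1 cell line, grown in serum-containing medium and treated near confluence for 6 h with HOCl in the medium. The groups were 0 mM with 4 arrays, and 7 doses with 3 arrays each, of which 0.14 and 0.35 mM were the lowest, 0.7, 1.4 and 2.1 mM the middle ones, and 2.8 and 3.5 mM the highest. In all there were 25 Affymetrix mouse whole-genome arrays. The series' design text speaks of 3 biological replicates a dose, although 4 arrays are labelled 0 mM. How cultures, days or array runs were shared is not given in the sources used here. Values are the authors' log2 signals on a scale where the median of each array is 0, the base of the logarithm having been inferred. A value of 0 is thus the middle of all probe sets on that array, and a difference of 1 is a 2-fold difference. The doses are those added to the medium, and the amount that reached the cells is not given in the sources used here.

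Type I interferon is a signal that infected or stressed cells, macrophages among them, release and read back. Interferon beta binds a receptor of the subunits Ifnar1 and Ifnar2, the kinases Jak1 and Tyk2 are activated, and a complex that holds Stat2 and Irf9 binds the interferon-stimulated response element (ISRE) in promoters. The genes it turns on encode RNA and DNA sensors, enzymes that block viral replication, and the transcription factors and proteases that amplify or end the response. In macrophages the interferon gene itself is switched on by Irf3 and Irf7 after Toll-like receptors, RNA helicases or the cGAS and Sting1 pathway have been engaged.

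The cells carried the labelled identity. The mean of the 8 macrophage markers lay between 5.16 and 5.88 on every array, with Lyz2, Csf1r, Cd68 and Cd14 all far above the array median. Across the 15 measured markers of T, B, NK, plasmacytoid dendritic, neutrophil, fibroblast, epithelial and endothelial cells the mean lay between -0.26 and 0.0015, and Epcam had the highest single value, 1.73. Over the 44818 probe sets outside the gene lists, 11 of the 25 arrays were most like an array of another dose: replicates 1 and 3 of 0 mM, replicate 3 of 0.35 mM, every array of 0.7 and 1.4 mM, and replicate 1 of 2.8 and of 3.5 mM. Poly-A control transcripts of bacterial origin, which are added during labelling, read at most 1.12 on 11 arrays and at least 1.75 on the other 14. The high level took in replicate 3 of 0.35 mM, replicate 3 of 0.7 mM and all arrays from 1.4 mM upwards, so from 1.4 mM on control level and dose cannot be told apart. The Actb 3′ minus 5′ difference, a measure of RNA integrity, lay between 0.12 and 0.68. In these bulk samples, fewer cells of a type and less RNA per cell cannot be told apart.

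At 0.35 mM, and on no other dose as uniformly, the set was high. The mean over the 33 genes was 4.66, 4.36 and 4.65 on the 3 arrays of 0.35 mM, against 2.08, 2.17, 3.43 and 2.11 on the arrays of 0 mM. At 0.14 mM it was 1.97, 2.25 and 2.20, inside or below the range of 0 mM. At 0.7 mM it was 2.60, 1.63 and 4.58, and at 1.4 mM 1.51, 2.10 and 4.35, so that replicate 3 of each stood where the 0.35 mM arrays stood and the other arrays of the same dose stood near or below 0 mM. At 2.1 mM the arrays came together at 3.58, 3.32 and 3.28, between 0 and 0.35 mM. At 2.8 mM they read 2.35, 2.77 and 2.69, and at 3.5 mM 2.63, 2.37 and 2.59, all within the range of 0 mM. The highest dose mean was that of 0.35 mM for 32 of the 33 genes, Irf9 being the exception, with its highest mean at 2.1 mM.

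**Figure D1:**
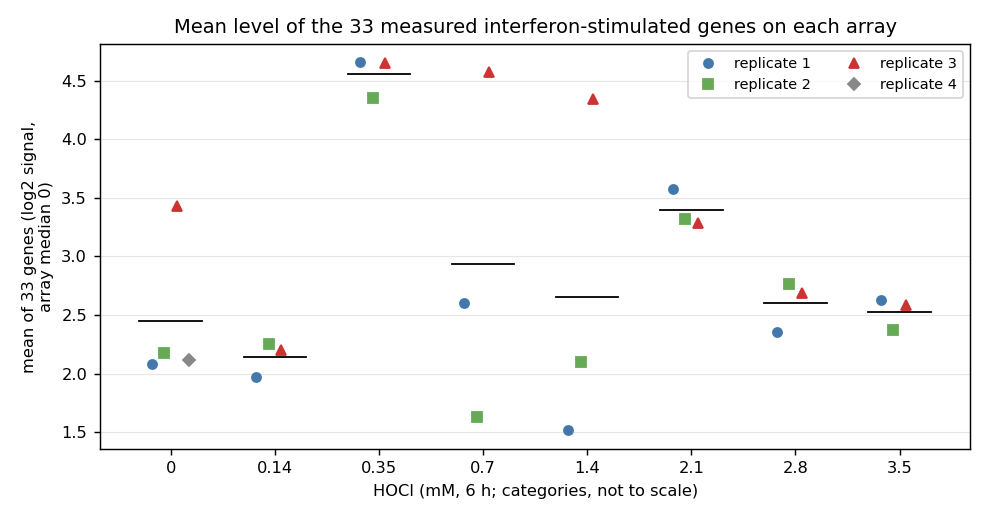
Mean log2 signal of the 33 measured interferon-stimulated genes (y axis, array median 0) on each of the 25 arrays by HOCl dose (x axis, mM, as categories); a symbol is 1 array, shaped by replicate number, and a line is the mean of a dose. The 3 arrays of 0.35 mM lie between 4.36 and 4.66, replicate 3 of 0.7 and 1.4 mM lies at 4.58 and 4.35, and the other arrays of these doses lie between 1.51 and 2.60.

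**Figure D2:**
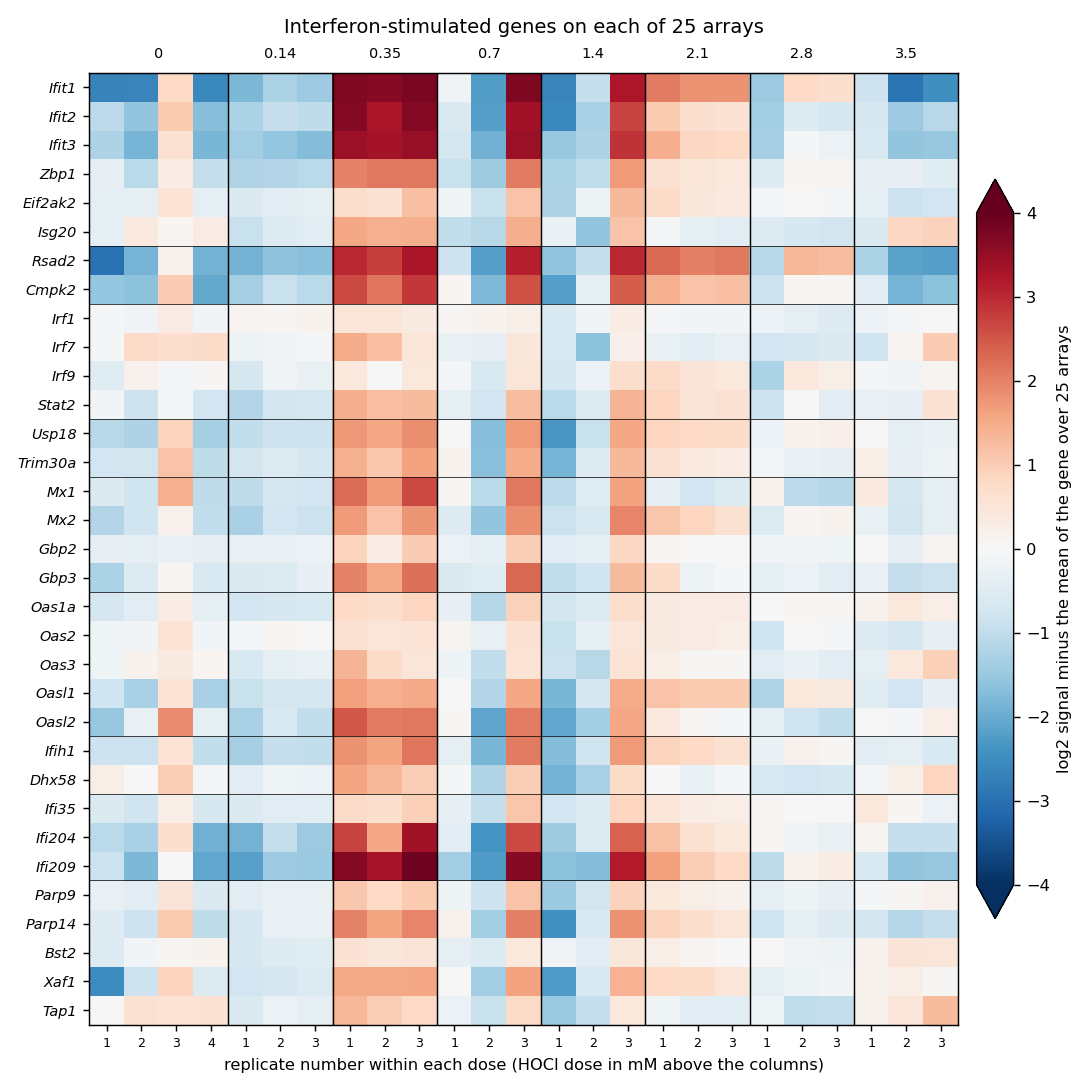
Log2 signal of each gene (rows, grouped by role) on each array (columns, by dose and replicate), as the difference from the mean of that gene over the 25 arrays; red is above and blue below that mean, and values beyond 4 take the end colour. The columns of 0.35 mM and of replicate 3 of 0.7 and 1.4 mM are red in nearly all rows, replicate 3 of 0 mM is redder than the other 0 mM columns, and Bst2 and Tap1 lie above the mean of the gene on all 3 arrays of 3.5 mM.

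To show what the set shares in sequence, the promoter window of each gene, 250 bases before to 50 after its start in RefSeq on GRCm38.p6, was searched on both strands for an ISRE core (GAAA, 2 bases of any kind, GAAA) and for the gamma-activated sequence TTCNNNGAA (GAS), an element of interferon gamma responses. A window was at hand for 28 of the 37 genes. There was none for Zbp1, Usp18, Mx1, Mx2, Oas2, Dhx58, Ifi204, Parp9 and Parp14. The ISRE core stood in 15 of the 28 windows (53.6%), against 3.99% of the windows of 27025 genes. The GAS letters stood in 7 of the 28, against 9.55% of all genes. The stretches below, 110 bases each and upstream of the start, are those of 5 genes with an ISRE core, 4 of which rose at 0.35 mM while Oas1a was already high in untreated cells, and of Irf1, a GAS gene. Capitals mark the motif, on either strand, and the sequence is written 5′ to 3′ on the strand of the gene. For Oas1a only the ISRE core is in capitals. Its stretch also holds a GAS match, at -98 from the start, left in small letters.
Ifit1, chr19:34640775-34640884, plus strand: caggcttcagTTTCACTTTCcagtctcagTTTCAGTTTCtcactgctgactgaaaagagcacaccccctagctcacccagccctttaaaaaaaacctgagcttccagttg
Ifit3, chr19:34583363-34583472, plus strand: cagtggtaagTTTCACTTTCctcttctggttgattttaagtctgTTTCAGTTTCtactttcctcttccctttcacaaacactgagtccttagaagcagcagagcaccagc
Rsad2, chr12:26456473-26456582, minus strand: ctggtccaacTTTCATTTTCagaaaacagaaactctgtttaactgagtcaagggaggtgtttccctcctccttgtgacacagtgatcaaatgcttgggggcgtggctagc
Gbp2, chr3:142620553-142620662, plus strand: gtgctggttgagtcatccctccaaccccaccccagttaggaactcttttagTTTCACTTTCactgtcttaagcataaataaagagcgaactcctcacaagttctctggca
Oas1a, chr5:120907526-120907635, minus strand: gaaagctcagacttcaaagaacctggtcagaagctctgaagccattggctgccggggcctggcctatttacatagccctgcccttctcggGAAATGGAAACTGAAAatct
Irf1, chr11:53769904-53770013, plus strand: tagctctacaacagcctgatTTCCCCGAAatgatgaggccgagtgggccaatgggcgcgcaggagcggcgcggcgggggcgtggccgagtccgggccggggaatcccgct
Ifit1 and Ifit3 each carry the ISRE core at 2 places, and in Oas1a 2 matches overlap. Of the measured genes with a window, 12 had the ISRE core and 12 did not. At 0.35 mM against 0 mM, 7 of the 12 genes with it and 4 of the 12 without it passed the test described next, with median log2 differences of 1.74 and 1.80. A match describes these letters only.

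At 0.35 mM against 0 mM, 16 of the 33 genes rose and 0 fell, in the moderated test of limma on all 25 arrays with an adjusted p under 0.05. Of all 45037 probe sets, 1.71% were called higher and 4.72% lower in that comparison, 6.43% in all. The median difference of the 33 genes was 2.17 on the log2 scale, against 0.032 over all genes. Every one of the 33 differences was positive, the smallest being 0.34 for Irf9. In 29 of the 33, all 3 arrays of 0.35 mM lay above all 4 arrays of 0 mM, which held for 6.76% of all genes. The genes that rose were Ifit1, Ifit2, Ifit3, Rsad2, Cmpk2, Ifi204, Ifi209, Zbp1, Gbp2, Gbp3, Mx1, Mx2, Usp18, Ifih1, Oasl1 and Stat2. For 12 of the 33 genes at least 3 of the 4 arrays of 0 mM lay within the range of single markers of other cell types, -1.66 to 1.73: Ifit1, Ifit3, Zbp1, Cmpk2, Stat2, Mx1, Mx2, Gbp2, Gbp3, Oasl2, Ifi204 and Ifi209, of which 11 rose. A low level cannot be told from background there, so these genes, and Ifnb1 below, are given by the log2 difference of their signals, without a fold and without ranking. Another 13 had an unadjusted p under 0.05 without passing, among them Oasl2 (log2 2.28, SE 0.82, adjusted p = 0.0993) and Xaf1 (log2 2.27, SE 0.71, adjusted p = 0.0599). The count rests on the spread of single arrays. It was 24 without replicate 3 of 0 mM, and it was 2 without replicate 2 and 4 without replicate 4 of 0 mM, and 5, 0 and 7 without replicates 1, 2 and 3 of 0.35 mM. Of all probe sets, 3.09% were called higher without replicate 3 of 0 mM, 0.411% and 0.5% without replicates 2 and 4 of 0 mM, and 0.617%, 0.175% and 1.83% without replicates 1, 2 and 3 of 0.35 mM. With poly-A control level as a term the count was 7, where 2.17% of all probe sets were called higher. Within the arrays of low control level, 2 at 0.35 mM and 4 at 0 mM, it was 16, where 1.34% were.

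**Figure D3:**
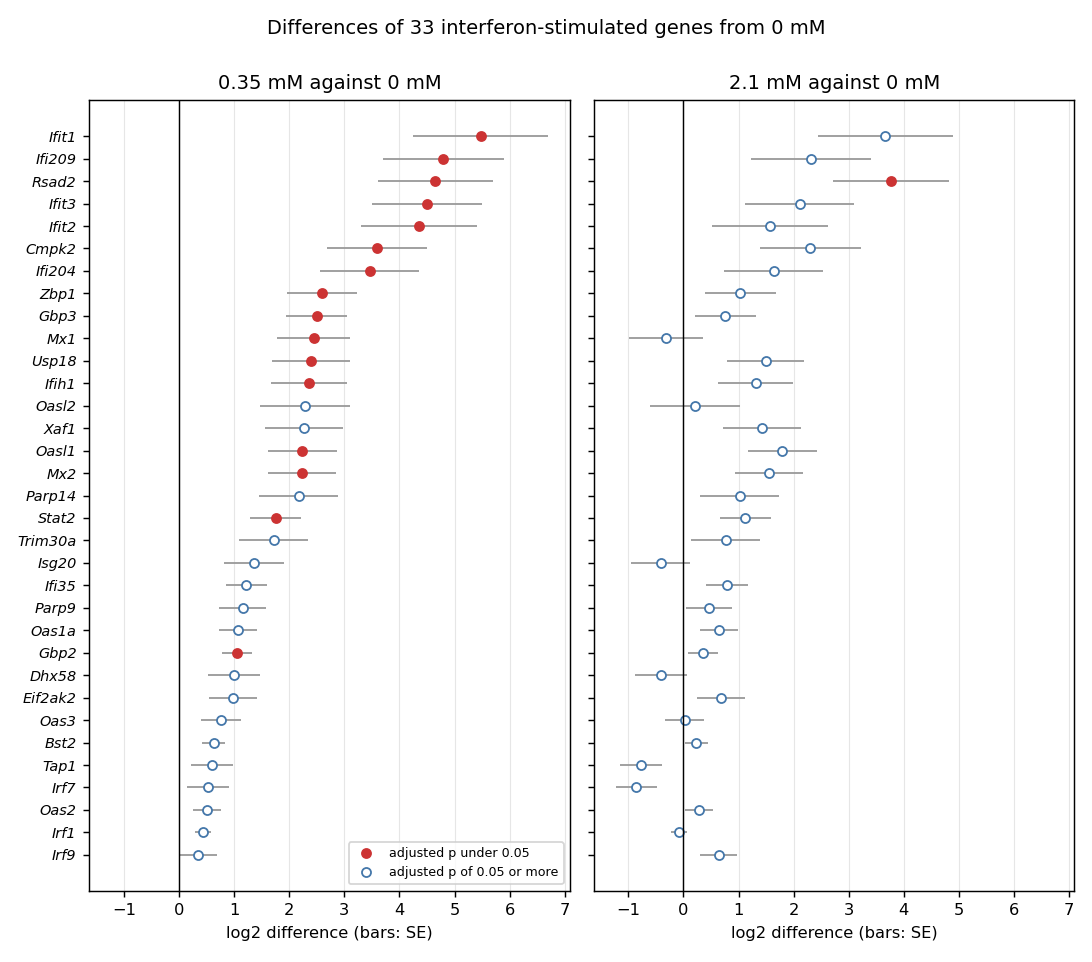
Log2 difference from 0 mM (x axis, bars are SE of the limma fit on all 25 arrays) of each of the 33 genes at 0.35 mM (left) and 2.1 mM (right), in the order of the 0.35 mM values; filled points have an adjusted p under 0.05. At 0.35 mM all points lie right of 0 and 16 are filled, and at 2.1 mM only that of Rsad2 is filled.

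Against 0.14 mM, the next lower dose, 17 of the 33 genes rose at 0.35 mM and 0 fell, beside 1.1% of all probe sets called higher. All 3 arrays of 0.35 mM lay above all 3 of 0.14 mM for each of the 33 genes, and the median difference was 2.18. The share of all genes without overlap in this comparison is not given here. Such a gap held for 3 of the 8 macrophage markers and 1 of the 15 measured markers of other cell types. Ifi209, Ifit1 and Ifit3 were among those that rose (for Ifi209, log2 5.33, SE 1.17, adjusted p = 0.0201). Bst2, Isg20, Oas1a and Oasl2 passed here and not against 0 mM, while Gbp2, Usp18 and Oasl1 passed against 0 mM and not here. Whether the 2 comparisons differ for these genes was not tested, and they share the 0.35 mM arrays. The count was 3, 0 and 0 without replicates 1, 2 and 3 of 0.14 mM, 1, 1 and 3 without replicates 1, 2 and 3 of 0.35 mM, 26 without replicate 3 of 1.4 mM, and 2 with control level as a term. Of all probe sets, 0.00888% to 0.366% were called higher in the 6 omissions of an array of either dose, 1.5% without replicate 3 of 1.4 mM and 0.222% with control level as a term.

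The 4 transcription factors had the smallest median difference of the roles at 0.35 mM against 0 mM, 0.48, with a single call. Stat2, which carries the activation domain of the interferon complex, had signals of 1.11, 0.39, 1.16 and 0.45 at 0 mM, 0.044, 0.49 and 0.54 at 0.14 mM, 2.68, 2.43 and 2.49 at 0.35 mM and 0.83, 0.46 and 2.47 at 0.7 mM. Stat2 then read 0.16, 0.68 and 2.60 at 1.4 mM, 2.09, 1.75 and 1.85 at 2.1 mM, 0.41, 1.21 and 0.76 at 2.8 mM and 0.93, 0.89 and 1.82 at 3.5 mM. Its 0.35 mM arrays lay above all 0 mM arrays, and it rose (log2 1.76, SE 0.46, adjusted p = 0.0292). The same complex takes its DNA-binding part from Irf9, which had signals of 2.42, 3.07, 2.87 and 2.96 at 0 mM, 2.26, 2.75 and 2.60 at 0.14 mM, 3.31, 2.89 and 3.31 at 0.35 mM and 2.81, 2.30 and 3.38 at 0.7 mM. Irf9 then read 2.19, 2.66 and 3.60 at 1.4 mM, 3.65, 3.43 and 3.33 at 2.1 mM, 1.63, 3.32 and 3.13 at 2.8 mM and 2.87, 2.81 and 3.01 at 3.5 mM. For Irf9 the 0.35 mM and 0 mM arrays overlapped (log2 0.34, SE 0.34, adjusted p = 0.592), and the 2.1 mM arrays lay above those of 0 mM without passing the test (adjusted p = 0.229). Its replicate 1 at 2.8 mM, at 1.63, was the lowest of all 25 arrays.

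Irf7, the factor that amplifies the interferon response, was already high in untreated cells, with 4.30, 5.11, 5.02 and 5.08 at 0 mM, 4.16, 4.25 and 4.27 at 0.14 mM, 5.84, 5.54 and 4.83 at 0.35 mM and 4.05, 4.03 and 4.79 at 0.7 mM. At the higher doses it read 3.74, 2.71 and 4.56 at 1.4 mM, 4.10, 3.93 and 4.05 at 2.1 mM, 3.58, 3.69 and 3.78 at 2.8 mM and 3.54, 4.45 and 5.37 at 3.5 mM. Its 0.35 mM arrays overlapped those of 0 mM (log2 0.53, SE 0.38, adjusted p = 0.432). At 2.8 mM all 3 arrays lay below all 0 mM arrays and Irf7 fell to 0.438-fold of its 0 mM level (log2 -1.19, SE 0.38, adjusted p = 0.0442). It was the single gene of the set called lower in any comparison with 0 mM, beside 6.26% of all probe sets called lower and 5.64% called higher at 2.8 mM. That call was lost in 14 of the 25 omissions of a single array, among them those of replicates 2, 3 and 4 of 0 mM and of each 2.8 mM array. Irf1, a factor that answers interferon gamma and tumour necrosis factor as well, read 2.47, 2.40, 2.86 and 2.45 at 0 mM, 2.66, 2.60 and 2.68 at 0.14 mM, 3.02, 3.02 and 2.91 at 0.35 mM and 2.60, 2.68 and 2.77 at 0.7 mM. At the higher doses its signals were 1.92, 2.43 and 2.83 at 1.4 mM, 2.51, 2.45 and 2.44 at 2.1 mM, 2.32, 2.18 and 2.03 at 2.8 mM and 2.32, 2.47 and 2.57 at 3.5 mM. The 0.35 mM arrays of Irf1 lay above those of 0 mM by a small margin and did not pass (log2 0.44, SE 0.15, adjusted p = 0.0774).

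Among the RNA-binding effectors 4 of 6 rose at 0.35 mM. The products of the Ifit genes bind viral RNA and hold back its translation. Ifit1 signals were -0.68, -0.64, 2.81 and -0.58 at 0 mM, 0.19, 0.74 and 0.55 at 0.14 mM, 5.70, 5.65 and 5.75 at 0.35 mM and 1.86, -0.25 and 5.73 at 0.7 mM. Ifit1 then read -0.64, 1.09 and 5.23 at 1.4 mM, 4.08, 3.80 and 3.79 at 2.1 mM, 0.55, 2.80 and 2.64 at 2.8 mM and 1.17, -0.92 and -0.44 at 3.5 mM. The 0.35 mM arrays agreed within 0.1 of each other, all 2.1 mM arrays lay above all 0 mM arrays, and replicate 3 of 0 mM lay more than 3 units above the other 0 mM arrays. Ifit1 rose at 0.35 mM (log2 5.47, SE 1.22, adjusted p = 0.0145) and had an adjusted p of 0.0521 at 2.1 mM. Ifit3, whose human form binds and steadies IFIT1, had signals of 1.09, 0.47, 2.94 and 0.52 at 0 mM, 0.96, 0.80 and 0.60 at 0.14 mM, 5.77, 5.67 and 5.82 at 0.35 mM and 1.64, 0.42 and 5.80 at 0.7 mM. Ifit3 then read 0.82, 1.11 and 5.23 at 1.4 mM, 3.78, 3.16 and 3.15 at 2.1 mM, 1.00, 2.28 and 2.09 at 2.8 mM and 1.72, 0.76 and 0.81 at 3.5 mM. Ifit3 rose at 0.35 mM (log2 4.50, SE 1.00, adjusted p = 0.0138). Ifit2 and Zbp1, a sensor of Z-form nucleic acid, also rose, by 4.36 and 2.60 on the log2 scale. Eif2ak2, the kinase PKR that stops translation when it binds double-stranded RNA, read 2.59, 2.59, 3.53 and 2.64 at 0 mM, 2.41, 2.55 and 2.62 at 0.14 mM, 3.68, 3.56 and 4.18 at 0.35 mM and 2.88, 2.11 and 4.14 at 0.7 mM. Eif2ak2 then read 1.75, 2.79 and 4.29 at 1.4 mM, 3.76, 3.43 and 3.37 at 2.1 mM, 2.93, 3.00 and 2.96 at 2.8 mM and 2.64, 2.13 and 2.23 at 3.5 mM. Its 3 arrays at 0.35 mM lay just above all 0 mM arrays, and it did not pass (log2 0.97, SE 0.44, adjusted p = 0.192). Isg20, an RNA exonuclease, did not pass against 0 mM either (adjusted p = 0.136).

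**Figure D4:**
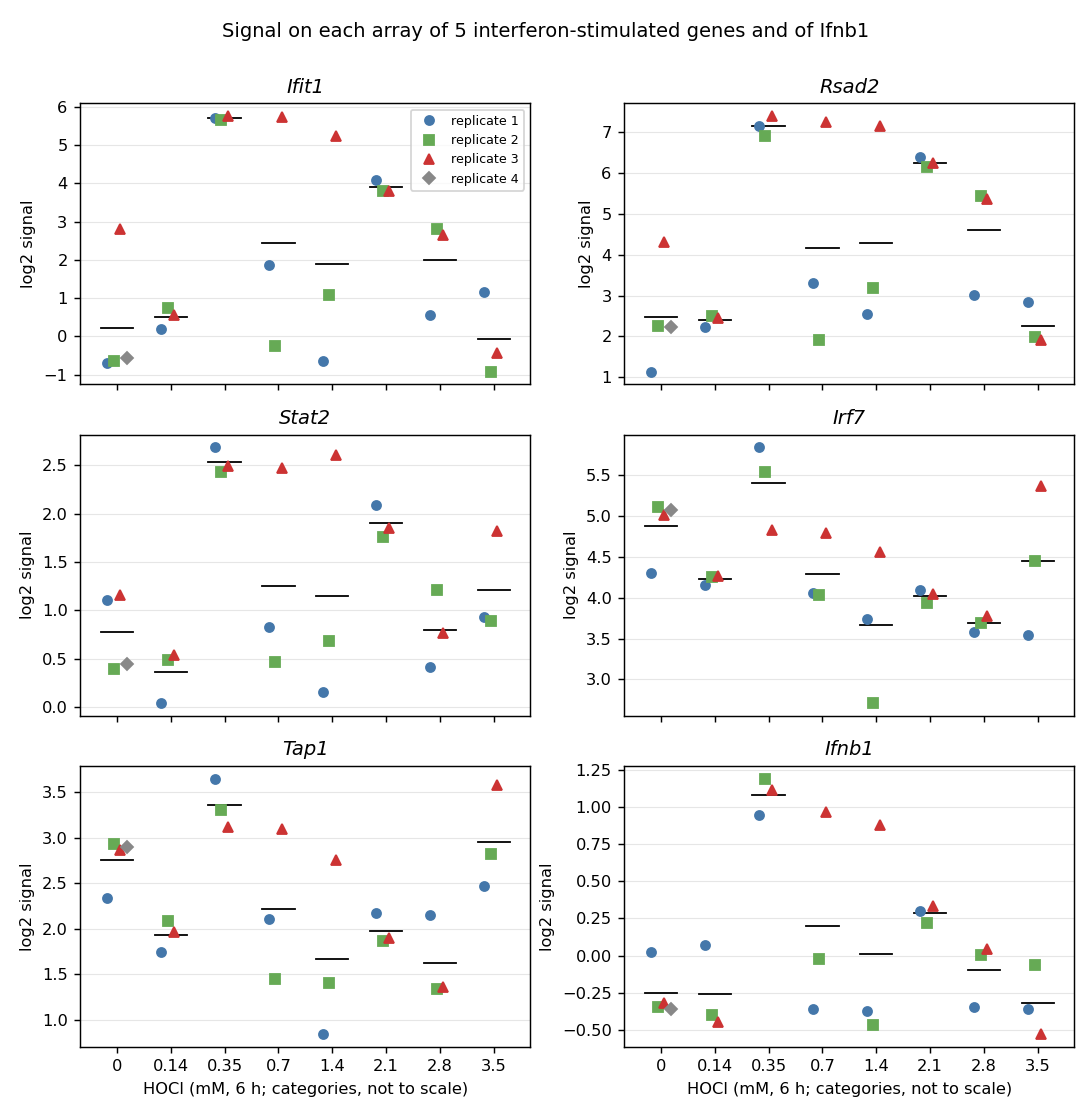
Log2 signal (y axis) of Ifit1, Rsad2, Stat2, Irf7, Tap1 and Ifnb1 on each array by HOCl dose (x axis, mM, as categories); symbols are arrays by replicate number and lines are dose means. For Ifit1, Rsad2, Stat2 and Ifnb1 replicate 3 of 0.7 and 1.4 mM lies near the 0.35 mM arrays and far from the other arrays of its dose. For every gene shown the 3.5 mM arrays overlap those of 0 mM.

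Rsad2 and Cmpk2 both rose at 0.35 mM. Rsad2 encodes viperin, which makes a chain-terminating nucleotide, and Cmpk2, its neighbour in the genome, encodes a mitochondrial nucleotide kinase. Rsad2 signals were 1.14, 2.26, 4.30 and 2.24 at 0 mM, 2.24, 2.51 and 2.45 at 0.14 mM, 7.14, 6.89 and 7.39 at 0.35 mM and 3.31, 1.92 and 7.24 at 0.7 mM. Rsad2 then read 2.56, 3.18 and 7.14 at 1.4 mM, 6.38, 6.14 and 6.23 at 2.1 mM, 3.02, 5.44 and 5.37 at 2.8 mM and 2.85, 1.99 and 1.91 at 3.5 mM. All 6 arrays of 0.35 and 2.1 mM lay above the highest 0 mM array, and so did replicates 2 and 3 of 2.8 mM. It rose 25.2-fold at 0.35 mM (log2 4.65, SE 1.05, adjusted p = 0.0147) and 13.6-fold at 2.1 mM (log2 3.77, SE 1.05, adjusted p = 0.0212). Cmpk2 read 1.43, 1.33, 4.01 and 0.94 at 0 mM, 1.64, 2.10 and 1.90 at 0.14 mM, 5.63, 5.13 and 5.80 at 0.35 mM and 3.06, 1.20 and 5.52 at 0.7 mM. Cmpk2 then read 0.76, 2.59 and 5.41 at 1.4 mM, 4.39, 4.11 and 4.20 at 2.1 mM, 2.17, 3.10 and 3.02 at 2.8 mM and 2.55, 1.11 and 1.35 at 3.5 mM. Replicate 3 of 0 mM stood far above the other 0 mM arrays for Cmpk2 too. Cmpk2 rose at 0.35 mM (log2 3.60, SE 0.91, adjusted p = 0.0246).

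Of the ubiquitin-like modifier system, Usp18, the protease that strips Isg15 from proteins and dampens the receptor, had signals of 4.27, 4.15, 6.26 and 4.04 at 0 mM, 4.39, 4.53 and 4.54 at 0.14 mM, 7.11, 6.91 and 7.21 at 0.35 mM and 5.37, 3.68 and 7.06 at 0.7 mM. Usp18 then read 3.05, 4.49 and 6.91 at 1.4 mM, 6.24, 6.18 and 6.09 at 2.1 mM, 5.15, 5.51 and 5.59 at 2.8 mM and 5.38, 5.01 and 5.09 at 3.5 mM. It was high in untreated cells and rose 5.27-fold at 0.35 mM (log2 2.40, SE 0.71, adjusted p = 0.0471). Trim30a, which restrains Toll-like receptor signalling in mice, had a log2 difference of 1.72 that did not pass on its brightest probe set (adjusted p = 0.107), its arrays overlapping those of 0 mM through replicate 3 of 0 mM. A dimmer probe set of Trim30a did pass, with 2.25 (adjusted p = 0.0382).

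All 4 GTPases of the set rose at 0.35 mM. Mx1, a dynamin-like GTPase that blocks influenza virus in the nucleus, had signals of 0.10, -0.14, 2.08 and -0.34 at 0 mM, -0.34, -0.0020 and -0.11 at 0.14 mM, 2.91, 2.38 and 3.32 at 0.35 mM and 0.70, -0.40 and 2.77 at 0.7 mM. Mx1 then read -0.38, 0.19 and 2.28 at 1.4 mM, 0.34, -0.12 and 0.10 at 2.1 mM, 0.84, -0.39 and -0.47 at 2.8 mM and 1.05, -0.047 and 0.27 at 3.5 mM. Mx1 rose at 0.35 mM (log2 2.44, SE 0.67, adjusted p = 0.0342), and at 2.1 mM its arrays lay inside the range of 0 mM (log2 -0.31, SE 0.67, adjusted p = 0.802). Mx2, its cytoplasmic relative, read 0.29, 0.65, 1.63 and 0.48 at 0 mM, 0.17, 0.68 and 0.60 at 0.14 mM, 3.16, 2.59 and 3.22 at 0.35 mM and 0.94, -0.12 and 3.33 at 0.7 mM. Mx2 then read 0.60, 0.86 and 3.41 at 1.4 mM, 2.56, 2.32 and 2.08 at 2.1 mM, 0.91, 1.53 and 1.59 at 2.8 mM and 1.16, 0.74 and 1.08 at 3.5 mM. Mx2 rose at 0.35 mM (log2 2.23, SE 0.62, adjusted p = 0.0373), and its 2.1 mM arrays, unlike those of Mx1, lay above all 0 mM arrays. Whether Mx1 and Mx2 differ at 2.1 mM was not tested. Gbp2, a guanylate-binding protein that attacks the vacuoles of pathogens, was among the dimmest of the set, with -1.30, -1.35, -1.26 and -1.30 at 0 mM, -1.27, -1.29 and -1.23 at 0.14 mM, -0.081, -0.70 and 0.030 at 0.35 mM and -1.21, -1.36 and -0.014 at 0.7 mM. Gbp2 then read -1.42, -1.35 and -0.15 at 1.4 mM, -0.92, -0.97 and -0.96 at 2.1 mM, -1.08, -1.10 and -1.14 at 2.8 mM and -0.995, -1.32 and -0.88 at 3.5 mM. Its 0 mM arrays lay within 0.1 of each other, and it rose at 0.35 mM (log2 1.05, SE 0.28, adjusted p = 0.0291). Gbp3 rose as well (log2 2.50, SE 0.55, adjusted p = 0.0138).

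Genes of the oligoadenylate synthetase family, only some of which answer double-stranded RNA by making the activator of RNase L, differed widely. Only Oasl1 of the 5 measured passed against 0 mM at 0.35 mM. Oas1a was abundant throughout, with 5.32, 5.53, 6.30 and 5.61 at 0 mM, 5.23, 5.35 and 5.39 at 0.14 mM, 6.77, 6.64 and 6.86 at 0.35 mM and 5.66, 4.85 and 6.92 at 0.7 mM. Oas1a then read 5.27, 5.43 and 6.69 at 1.4 mM, 6.36, 6.32 and 6.31 at 2.1 mM, 6.00, 6.08 and 6.05 at 2.8 mM and 6.14, 6.41 and 6.27 at 3.5 mM. Its 0.35 mM arrays lay above all 0 mM arrays without passing (log2 1.07, SE 0.35, adjusted p = 0.0689), and against 0.14 mM it rose 2.70-fold (log2 1.43, SE 0.37, adjusted p = 0.0376). Oasl1, which in mice holds back translation of Irf7, read 3.83, 3.33, 5.15 and 3.31 at 0 mM, 3.73, 3.91 and 3.90 at 0.14 mM, 6.25, 6.02 and 6.14 at 0.35 mM and 4.63, 3.43 and 6.16 at 0.7 mM. Oasl1 then read 2.79, 3.95 and 6.09 at 1.4 mM, 5.76, 5.67 and 5.66 at 2.1 mM, 3.41, 5.02 and 4.99 at 2.8 mM and 4.12, 3.84 and 4.27 at 3.5 mM. It rose 4.71-fold at 0.35 mM (log2 2.24, SE 0.63, adjusted p = 0.0387), and its 2.1 mM arrays also lay above those of 0 mM (adjusted p = 0.0643). Oas2, Oas3 and Oasl2 had log2 differences of 0.51, 0.77 and 2.28 and did not pass. Probe sets of close paralogs, here Oas1a with other Oas1 genes and the Ifi200 genes below, can share target sequence, and this was not tested.

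Of the RNA sensors, Ifih1, the helicase MDA5 that detects long double-stranded RNA, had signals of 3.17, 3.14, 4.57 and 3.03 at 0 mM, 2.67, 3.08 and 3.02 at 0.14 mM, 5.80, 5.58 and 6.15 at 0.35 mM and 3.63, 2.19 and 6.09 at 0.7 mM. Ifih1 then read 2.28, 3.21 and 5.72 at 1.4 mM, 4.92, 4.81 and 4.63 at 2.1 mM, 3.74, 4.18 and 4.05 at 2.8 mM and 3.58, 3.63 and 3.40 at 3.5 mM. It rose 5.15-fold at 0.35 mM (log2 2.37, SE 0.69, adjusted p = 0.0448), and its pattern followed the mean of the other genes closely (r = 0.98 over the 25 arrays). Dhx58, the related helicase LGP2, had a difference of 1.01 and did not pass (adjusted p = 0.212).

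Of the Ifi genes, 2 of 3 measured rose. Ifi204, a DNA-binding protein of the p200 family, read 0.14, -0.091, 1.84 and -0.71 at 0 mM, -0.68, 0.26 and -0.25 at 0.14 mM, 3.92, 2.77 and 4.58 at 0.35 mM and 0.75, -1.17 and 3.84 at 0.7 mM. Ifi204 then read -0.23, 0.66 and 3.57 at 1.4 mM, 2.38, 1.80 and 1.63 at 2.1 mM, 1.28, 1.06 and 0.91 at 2.8 mM and 1.31, 0.27 and 0.29 at 3.5 mM. It rose at 0.35 mM (log2 3.46, SE 0.90, adjusted p = 0.0272), and its replicate 2 at 0.35 mM stood more than 1 unit below the other 2 arrays of that dose. Ifi209, of the same family, had signals of 0.24, -0.68, 1.12 and -0.96 at 0 mM, -1.06, -0.36 and -0.39 at 0.14 mM, 4.79, 4.39 and 5.00 at 0.35 mM and -0.25, -1.16 and 4.75 at 0.7 mM. Ifi209 then read -0.54, -0.62 and 4.27 at 1.4 mM, 2.73, 2.09 and 1.91 at 2.1 mM, 0.095, 1.26 and 1.40 at 2.8 mM and 0.50, -0.47 and -0.39 at 3.5 mM. It lay within about 1 unit of the array median, on either side, at 0 and 0.14 mM, and rose at 0.35 mM (log2 4.80, SE 1.10, adjusted p = 0.0157). A dimmer probe set of Ifi209 had a smaller difference, 0.96 (adjusted p = 0.0177). Ifi35, a partner of Nmi, had a difference of 1.23 and did not pass (adjusted p = 0.0550).

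The remaining 5 genes did not pass against 0 mM at 0.35 mM, although all arrays of 0.35 mM lay above all arrays of 0 mM for each of them. Bst2, the membrane tether of budding viruses, had signals of 4.21, 4.66, 4.82 and 4.90 at 0 mM, 4.11, 4.26 and 4.27 at 0.14 mM, 5.34, 5.21 and 5.29 at 0.35 mM and 4.38, 4.23 and 5.18 at 0.7 mM. Bst2 then read 4.62, 4.32 and 5.21 at 1.4 mM, 5.00, 4.87 and 4.76 at 2.1 mM, 4.78, 4.63 and 4.57 at 2.8 mM and 4.94, 5.27 and 5.26 at 3.5 mM. It rose 2.09-fold against 0.14 mM (log2 1.06, SE 0.22, adjusted p = 0.0158) and had a difference of 0.63 against 0 mM (adjusted p = 0.0706). Tap1, which carries peptides into the endoplasmic reticulum for class I molecules, read 2.33, 2.93, 2.86 and 2.89 at 0 mM, 1.75, 2.08 and 1.97 at 0.14 mM, 3.65, 3.31 and 3.11 at 0.35 mM and 2.10, 1.45 and 3.09 at 0.7 mM. Tap1 then read 0.84, 1.41 and 2.75 at 1.4 mM, 2.17, 1.86 and 1.90 at 2.1 mM, 2.15, 1.34 and 1.36 at 2.8 mM and 2.47, 2.81 and 3.58 at 3.5 mM. Tap1 was the gene of the set that rose at 3.5 mM against 2.8 mM, 2.52-fold (log2 1.34, SE 0.41, adjusted p = 0.0374), beside 5.59% of all probe sets called higher in that step. That call was lost without replicate 2 or 3 of 2.8 mM and without replicate 2 or 3 of 3.5 mM. Parp9 and Parp14, which attach ADP-ribose to proteins, and Xaf1, an antagonist of the apoptosis inhibitor Xiap, had log2 differences of 1.15, 2.17 and 2.27 at 0.35 mM against 0 mM. A dimmer probe set of Xaf1 did not move with the one used, at -0.15 (adjusted p = 0.542).

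At 0.7 and 1.4 mM the arrays of a dose disagreed, and the disagreement ran through the whole set. Replicate 3 was the highest array for each of the 33 genes at 0.7 mM and for each of the 33 at 1.4 mM, against 39.9% and 39.4% of all genes. It lay 1 unit or more above the mean of the other arrays of its dose for 28 genes at 0.7 mM and 31 at 1.4 mM, which held for 2.76% and 2.12% of all genes. The gap was 5.45 for Ifi209 at 0.7 mM and 5.00 for Ifit1 at 1.4 mM, both genes being dim at 0 mM and not ranked. Set against the mean of the 0.35 mM arrays, replicate 3 of 0.7 mM was within 0.5 for 32 of the 33 genes (median difference 0.029), and replicate 3 of 1.4 mM for 25 (median -0.14). At 0.7 mM, replicate 1 lay below all 0 mM arrays for 5 genes and replicate 2 for 24, with median differences of 0.091 and -0.84 from the 0 mM mean (0.28 and -0.49 when replicate 3 of 0 mM is left out of it). At 1.4 mM, replicate 1 lay below all 0 mM arrays for 22 genes and replicate 2 for 7, with medians of -0.87 and -0.22 (-0.52 and 0.027 without that array). The low arrays of a dose thus differed from each other as well. The share of all genes below all 0 mM arrays is not given here for these arrays, so the counts have no background beside them. Over the probe sets outside the gene lists, replicate 3 of 0.7 mM was most like replicate 3 of 0.35 mM (r = 0.997) and replicate 3 of 1.4 mM most like replicate 3 of 0.7 mM (r = 0.997). Replicate 1 of 0.7 mM was most like replicate 3 of 0 mM (r = 0.995). Such r is high for all arrays, from 0.952 to 0.997 within doses. With the mean of each probe set over the 25 arrays taken out, the nearest array changed for both replicates 3. For replicate 3 of 0.7 mM it was replicate 3 of 1.4 mM (r = 0.82). For replicate 3 of 1.4 mM it was replicate 1 of 2.1 mM (r = 0.83). Replicate 1 of 0.7 mM kept the same nearest array (r = 0.68). Poly-A control transcripts were high on replicate 3 of 0.35, 0.7 and 1.4 mM and on replicates 1 and 2 of 1.4 mM, and low on the other arrays of 0, 0.35 and 0.7 mM. At 1.4 mM the macrophage marker mean was 5.16, 5.18 and 5.65 on replicates 1, 2 and 3, and the Actb 3′ minus 5′ difference was 0.57, 0.56 and 0.43. At 0.7 mM these were 5.50, 5.60 and 5.75, and 0.40, 0.41 and 0.38. Replicate 3 thus had the highest macrophage marker mean and the smallest Actb difference of its dose at both. The part of these measures in the split was not tested, nor was whether arrays were treated or labelled together.

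**Figure D5:**
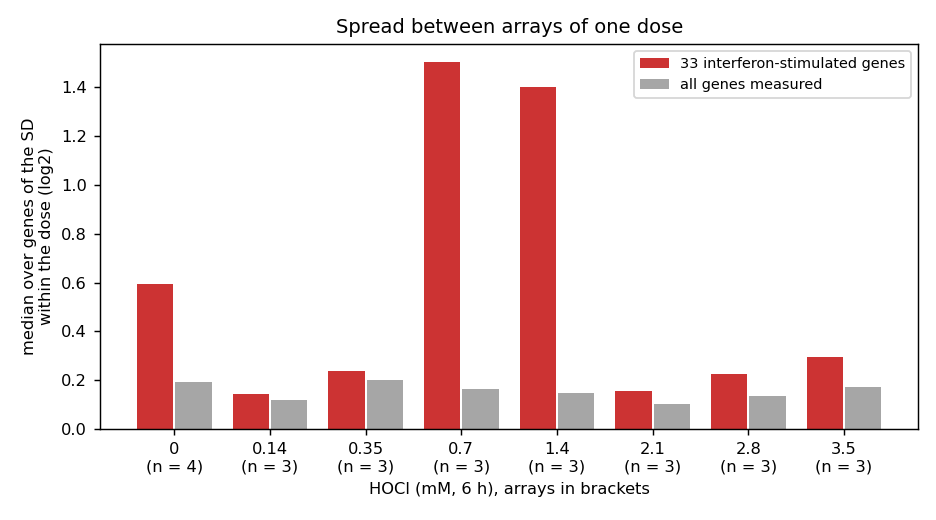
Median over genes of the SD between arrays of a dose (y axis, log2) for the 33 interferon-stimulated genes (red) and for all 18193 genes measured (grey), by HOCl dose (x axis, mM; arrays per dose in brackets). The 33 genes reach 1.5 at 0.7 mM and 1.40 at 1.4 mM, against 0.17 and 0.15 for all genes, and lie between 0.15 and 0.30 at 0.14, 0.35, 2.1, 2.8 and 3.5 mM.

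The median SD of the 33 genes within a dose was 1.5 at 0.7 mM and 1.40 at 1.4 mM, against 0.17 and 0.15 for all genes. It was 0.24 at 0.35 mM and 0.16 at 2.1 mM. Since limma pools the spread of all doses, the 0.7 and 1.4 mM arrays entered the SE of every comparison of these genes. With this spread, 0 of the 33 genes were called at 0.7 mM against 0 mM (0 with an unadjusted p under 0.05) and 0 at 1.4 mM against 0 mM (3 with an unadjusted p under 0.05). Of all probe sets, 0.12% were called higher and 0.0133% lower at 0.7 mM (0.133% in all), and 4.39% higher and 3.43% lower at 1.4 mM (7.81% in all). All arrays of the dose lay above all 0 mM arrays for 0 of the 33 genes at 0.7 mM and for 0 at 1.4 mM, against 4.31% and 9.34% of all genes. The median differences of 0.44 and 0.25 average arrays that stood apart and describe none of them. For 0.7 mM against 0.35 mM, 24 of the 33 genes had an unadjusted p under 0.05, all lower, with a median of -1.45, and 0 were called, as were 0.0% of all probe sets. Without replicate 3 of 0.7 mM 12 were called, where 0.657% of all probe sets were. Within the arrays of low control level, which leaves replicates 1 and 2 of both doses, 15 were called, all lower, where 0.586% of all probe sets were called lower and 0.4% higher. The steps from 0.7 to 1.4 mM and from 1.4 to 2.1 mM gave 0 calls, as 0.0% of all probe sets were called in each.

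Untreated cells disagreed in the same set, by less. Replicate 3 of 0 mM was the highest 0 mM array for 28 of the 33 genes, against 27.9% of all genes, and lay 1 unit or more above the mean of the other 0 mM arrays for 17, against 1.6% of all genes. For Ifit1, dim on the other 0 mM arrays, the gap was 3.44. It did not reach 0.35 mM: for 30 genes (share of all genes not given here) it lay below all 3 arrays of that dose, with a median difference of -0.79 from their mean. On that array Ifnb1 was not high, at -0.32 against 0.023, -0.35 and -0.36 on the others. Its nearest array outside the gene lists was replicate 1 of 0.7 mM (r = 0.995), and its poly-A controls were low, at 0.74.

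At 2.1 mM the 3 arrays agreed, and the genes stood at an intermediate level. Replicate 1 was the highest for each of the 33 genes, against 54.1% of all genes. Its lead over the mean of the others was at most 0.85. A single gene, Rsad2, rose against 0 mM and 0 fell, beside 7.26% of all probe sets called higher and 6.09% lower. The median difference was 0.77, with 11 genes at an unadjusted p under 0.05, and all 2.1 mM arrays lay above all 0 mM arrays for 14 genes, against 15.8% of all genes. The Rsad2 call was lost in 4 of the 25 omissions of a single array, those of replicate 1 of 0 mM and of each 2.1 mM array. In a fit of the arrays of 0 and 2.1 mM alone, 10 genes were higher and 2 lower, where 6.85% of all probe sets were called higher and 5.89% lower. Ifit1, Ifi209 and Cmpk2 had log2 differences of 3.67, 2.31 and 2.31, while Tap1 and Irf7 lay below all 0 mM arrays, at -0.78 and -0.85. Of these 5 none passed on all 25 arrays. From 2.1 to 2.8 mM all 33 differences were negative, with a median of -0.65, and 0 were called, beside 0.0178% of all probe sets called higher and 0.00666% lower (0.0244% in all).

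At the lowest and the highest doses the set was near untreated cells. At 0.14 mM against 0 mM 0 of the 33 were called, as were 0.00444% of all probe sets, with 2 at an unadjusted p under 0.05 and a median of -0.31. The sign of that median rests on replicate 3 of 0 mM: without it, the median was 0.0079. At 3.5 mM against 0 mM 0 were called, beside 3.93% of all probe sets called higher and 5.4% lower (9.32% in all), with 2 at an unadjusted p under 0.05 and a median of 0.14. Over all doses together, the F test called 15 of the 33, beside 24.7% of all probe sets: Ifit1, Ifit2, Ifit3, Zbp1, Rsad2, Cmpk2, Irf1, Irf7, Stat2, Mx1, Gbp3, Dhx58, Ifi209, Bst2 and Tap1. Ifit1, Rsad2 and Tap1 were called in each of the 25 omissions of a single array.

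Most of the set moved as a block over the arrays. The correlation of each gene with the mean of the other 32 over the 25 arrays, which share doses and libraries, had a median of 0.93 and was above 0.9 for 21 genes, Ifit2 being the highest at 0.99. Irf7 (0.49) and Tap1 (0.59) were the lowest. For these, and for Isg20, Oas3, Dhx58 and Bst2, the mean at 3.5 mM was the second highest after that at 0.35 mM, or the highest after those of 0.35 and 0 mM. Irf1 had its lowest mean at 2.8 mM, as did Isg20 and Tap1.

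Of the interferon ligands and receptors, Ifnb1 rose at 0.35 mM and Ifnar2 and Ifngr1 fell, out of 10 measured. Ifnb1, which encodes interferon beta, had signals of 0.023, -0.35, -0.32 and -0.36 at 0 mM, 0.074, -0.40 and -0.45 at 0.14 mM, 0.94, 1.19 and 1.12 at 0.35 mM and -0.36, -0.020 and 0.97 at 0.7 mM. Ifnb1 then read -0.37, -0.47 and 0.88 at 1.4 mM, 0.30, 0.22 and 0.33 at 2.1 mM, -0.35, 0.0030 and 0.044 at 2.8 mM and -0.36, -0.062 and -0.53 at 3.5 mM. Its 0.35 mM arrays and replicate 3 of 0.7 and 1.4 mM were the 5 highest of all, and the 2.1 mM arrays lay above every 0 mM array. Ifnb1 rose at 0.35 mM (log2 1.34, SE 0.28, adjusted p = 0.0108), although its signals lay near the array median throughout. The interferon alpha genes Ifna1, Ifna2, Ifna4 and Ifna5 and Ifng were not called in any comparison.

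Ifnar2, the signalling subunit of the type I receptor, read 3.56, 3.27 and 3.43 at 0.35 mM and 3.52, 3.44 and 3.41 at 2.1 mM, against 4.48, 5.16, 4.08 and 5.06 at 0 mM. It fell to 0.414-fold at 0.35 mM (log2 -1.27, SE 0.29, adjusted p = 0.0145) and to 0.424-fold at 2.1 mM (log2 -1.24, SE 0.29, adjusted p = 0.00714). It was also called lower at 2.8 mM (log2 -0.99, SE 0.29, adjusted p = 0.0291). Ifnar1 was not called at 0.35 mM (log2 -0.44, SE 0.16, adjusted p = 0.102). Ifngr1, the ligand-binding subunit of the interferon gamma receptor, read 2.05, 1.63 and 2.03 at 0.35 mM, against 3.12, 2.46, 2.32 and 2.47 at 0 mM, and fell to 0.622-fold (log2 -0.69, SE 0.16, adjusted p = 0.0177). It was also called lower at 2.1 mM (log2 -0.69, SE 0.16, adjusted p = 0.00771) and at 2.8 mM (log2 -0.87, SE 0.16, adjusted p = 0.00189).

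Of 20 measured signalling genes, 4 rose at 0.35 mM against 0 mM and 0 fell: Ikbke, Rigi, Tlr3 and Socs3. Rigi, the RNA helicase RIG-I, read 5.75, 5.34 and 5.44 at 0.35 mM, against 1.60, 3.55, 4.81 and 3.51 at 0 mM, and rose 4.41-fold (log2 2.14, SE 0.60, adjusted p = 0.0396). Socs3, an inhibitor of cytokine receptors, read 5.20, 5.07 and 5.66 at 0.35 mM and 5.35, 5.07 and 5.19 at 2.1 mM, against 2.29, 2.16, 0.90 and 1.97 at 0 mM. It rose 11.1-fold at 0.35 mM (log2 3.48, SE 0.73, adjusted p = 0.0110) and 10.4-fold at 2.1 mM (log2 3.37, SE 0.73, adjusted p = 0.00478), and on replicate 3 of 0 mM it was the lowest of the 4. Socs3 was called higher at 2.8 mM against 0 mM as well. Irf3, which switches on Ifnb1, and Socs1, an inhibitor of the interferon receptor, were not called at 0.35 mM, with differences of 0.15 and 0.38. Sting1, the adaptor of DNA sensing, fell at 1.4, 2.1 and 2.8 mM (at 2.1 mM log2 -0.53, SE 0.15, adjusted p = 0.0202), and Irf8, a macrophage factor, fell at 2.8 mM (log2 -0.69, SE 0.22, adjusted p = 0.0488).

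Of 26 other measured genes known to answer interferon, 10 rose at 0.35 mM against 0 mM and 0 fell, with a median difference of 1.39. They were Cxcl10, Ccl5, Ifi47, Gbp7, Slfn1, Slfn5, Herc6, Trim21, Lgals9 and Daxx. Cxcl10, a chemokine for activated T cells, read 6.71, 6.50 and 6.46 at 0.35 mM and 3.60, 3.43 and 3.24 at 2.1 mM, against 2.08, 0.98, 4.42 and 0.93 at 0 mM. It rose 21.9-fold at 0.35 mM (log2 4.45, SE 1.02, adjusted p = 0.0160). Iigp1, an immunity-related GTPase, was dim and not called (log2 1.10, SE 0.36, adjusted p = 0.0714). The genes of this list with the lowest F test p did something else: Trim25 and Adar, which act on RIG-I and on double-stranded RNA, fell at 3.5 mM against 0 mM (log2 -1.56, SE 0.18, adjusted p = 1.74e-05 and log2 -1.32, SE 0.17, adjusted p = 6.62e-05), and Cxcl11, a chemokine, fell at 1.4, 2.1 and 2.8 mM (at 2.1 mM log2 -1.26, SE 0.27, adjusted p = 0.00455).

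Of the 9 genes of class I antigen presentation, 0 were called at 0.35 mM against 0 mM, with 4 at an unadjusted p under 0.05. These 4 were split in direction, Psmb10 (log2 1.03) and Nlrc5 (0.74) higher, H2-K1 (-0.36) and H2-D1 (-0.32) lower. At 2.1 mM 4 genes fell and at 2.8 mM 4, beside 6.09% and 6.26% of all probe sets called lower. Psmb9, an immunoproteasome subunit, read 2.74, 2.72 and 2.56 at 2.1 mM, against 3.69, 3.98, 3.98 and 4.03 at 0 mM, and fell to 0.421-fold (log2 -1.25, SE 0.23, adjusted p = 0.00163). It rose at 3.5 mM against 2.8 mM (log2 1.38, SE 0.24, adjusted p = 0.00117), as Tap1 did. Tap2, the partner of Tap1 in the transporter, fell at 2.1 mM (log2 -0.66, SE 0.20, adjusted p = 0.0347). Psmb8 was not called at 0.35 or 2.1 mM (log2 0.27, SE 0.20, adjusted p = 0.456 and log2 -0.14, SE 0.20, adjusted p = 0.709). Nlrc5, a regulator of class I genes, and Tapbp, a chaperone of peptide loading, fell at 2.8 mM (log2 -1.18, SE 0.35, adjusted p = 0.0335 and log2 -0.68, SE 0.19, adjusted p = 0.0239).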

How the data were processed

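The deposited values are log2 signals of 45101 probe sets on 25 Affymetrix Mouse 430 2.0 arrays, on which the authors' median is 0 for each array. Array Assist is named per the labels' design text and RMA per the submitters' processing notes, their versions and settings being not given in the sources used here. Base 2 of the logarithm was taken from the range that the values cover. Raw intensities were not used here, so detection above background could not be read, and the number of arrays limits the precision.

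After 64 control probe sets were set aside, limma 3.58.1 in R 4.3.3 was fitted on 45037 probe sets with 1 mean per dose over all 25 arrays (17 residual and 2.99 prior degrees of freedom). Moderated two-sided tests were used, with Benjamini-Hochberg adjustment of p-values over all probe sets of a comparison and a threshold of 0.05. The scripts were tested on simulated data. Each gene was read from its brightest probe set with 1 symbol. Of the tested probe sets, 34945 had 1 symbol, 932 several and 9160 none.

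Named with all array values were a written list of the genes and, per comparison, the 3 called genes that moved most each way. Named from the pathway lists were a written list and up to 3 genes of lowest F test p per list. The genes and lists were chosen with earlier results of these data known. Alternatives covered the normalization, probe set choice, dim probe sets, variance prior, array weights, control level, replicate number, the arrays in the fit and the omission of single arrays. Leaving out arrays nearest to another dose, where enough arrays of their dose remained, was chosen after seeing the data.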

Additional observations from a re-analysis of the deposited data

Results flagged for a closer look

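In untreated cells 10 of the 33 genes had 1 array of the 4 that stood apart by Dixon's criterion for 4 values. Chance flags about 1 in 20 groups, and 7.71% of all 18193 genes were flagged at 0 mM. In 8 of the 10 the array was replicate 3, and it was high. Ifit1 read 2.81 there, against -0.68 to -0.58 on the other 0 mM arrays. Eif2ak2 read 3.53, against 2.59 to 2.64. Cmpk2 read 4.01, against 0.94 to 1.43. Replicate 3 was thus the high array for an RNA-binding effector, a kinase and a nucleotide kinase. Irf1 read 2.86, against 2.40 to 2.47. Usp18 read 6.26, against 4.04 to 4.27. Trim30a read 4.57, against 2.40 to 2.71. The same array was high for a regulator, a protease and a ubiquitin ligase family member. Oas2 read 4.06, against 3.32 to 3.39. Ifih1 read 4.57, against 3.03 to 3.17. For the other 2 genes replicate 1 of 0 mM was low. Irf7 read 4.30 on it, against 5.02 to 5.11, and Tap1 read 2.34, against 2.86 to 2.93.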

How the results depend on the processing

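The number of the 33 genes called at an adjusted p under 0.05 changed with the alternative used. With array weights (limma's gene-by-gene method), which weigh down arrays unlike their group, it was 3 at 0.14 mM, 30 at 0.35, 2 at 0.7, 2 at 1.4, 22 at 2.1 and 7 at 2.8 mM against 0 mM, where 18.5%, 24.7%, 17.6%, 20.6%, 38.7% and 31.4% of all probe sets were called. It was 33 for 0.35 against 0.14 mM, 24 for 0.7 against 0.35 mM, 6 for 3.5 against 2.8 mM and 33 in the F test, where 16.6%, 3.52%, 24.5% and 62.2% were. Control level as a term gave 7 at 0.35, 0 at 2.1 and 0 at 2.8 mM, and 2 for 0.35 against 0.14 mM, where 6.96%, 0.0866%, 0.264% and 1.14% of all probe sets were called. The arrays of low control level alone gave 15 for 0.7 against 0.35 mM, where 0.986% were. Quantile normalization gave 2 at 1.4 and 2 at 2.8 mM. Leaving out dim probe sets gave 1 at 1.4, 3 at 2.1 and 2 at 2.8 mM. The trended and robust prior gave 1 at 1.4 and 2 at 2.1 mM. Fitting only the 2 doses compared gave 12 at 2.1 and 2 at 2.8 mM, 31 for 0.35 against 0.14 mM, 3 for 2.8 against 2.1 mM and 0 for 3.5 against 2.8 mM, where 12.7%, 4.86%, 6.25%, 0.318% and 4.54% were. Arrays nearest to another dose were left out together only where enough arrays of their dose remained. These were replicates 1 and 3 of 0 mM, replicate 3 of 0.35 mM and replicate 1 of 2.8 and of 3.5 mM. Every array of 0.7 and 1.4 mM stayed in. This gave 1 at 1.4, 3 at 2.1 and 2 at 2.8 mM, and 8 in the F test. The medians were 0.091 at 0.14, 1.07 at 2.1, 0.49 at 2.8 and 0.39 at 3.5 mM. For the alternatives given without a share, their own share is not given here and can differ from that of the fit with none of these changes. That fit called 7.81% of all probe sets at 1.4 mM, 13.4% at 2.1 mM, 11.9% at 2.8 mM and 24.7% in the F test. The probe set of largest variance gave a median of 1.02 at 2.1 mM. The causes were not tested.

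Replicate numbers showed no general pairing of the arrays. Of 84 pairs with the same number, 19 had deviations correlated above 0.1 (median -0.026, from -0.698 to 0.555). Of 24 arrays, 5 correlated best with their own number. Whether some arrays were paired is not given in the sources used here. With the replicate block the count was 8 at 0.35 mM and 0 at 2.8 mM. Without the block, 6.43% and 11.9% of all probe sets were called at these doses. The shares with the block are not given here and can differ.

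Leaving out 1 array at a time gave 0 to 24 calls at 0.35 mM, 0 to 3 at 1.4, 0 to 5 at 2.1 and 0 to 3 at 2.8 mM against 0 mM, 0 to 26 for 0.35 against 0.14 mM, 0 to 12 for 0.7 against 0.35 mM, 0 to 1 for 3.5 against 2.8 mM and 4 to 31 in the F test. With no array left out, 6.43%, 7.81%, 13.4% and 11.9% of all probe sets were called at 0.35, 1.4, 2.1 and 2.8 mM against 0 mM. The share was 3.37% for 0.35 against 0.14 mM, 0.0% for 0.7 against 0.35 mM and 11.2% for 3.5 against 2.8 mM. In the F test it was 24.7%. These shares also change when an array is left out, as given above for 0.35 mM. The highest counts came without replicate 3 of 0 mM at 0.35 mM, without replicate 3 of 1.4 mM at 1.4 and 2.1 mM and in the F test, and without replicate 1 of 1.4 mM at 2.8 mM. The median differences ranged from -0.44 to 0.0079 at 0.14 mM, 1.80 to 2.52 at 0.35, -0.33 to 1.12 at 0.7, -0.53 to 0.82 at 1.4, 0.63 to 1.03 at 2.1, 0.029 to 0.47 at 2.8 and -0.017 to 0.42 at 3.5 mM. Of the named genes' values under all alternatives, 3596 kept their direction and side of the threshold, 123 lost a call, 79 gained one, 249 moved by more than the spread, and 0 called values reversed. In the fit with none of these changes, 14 of the 133 values were called. Only those could lose a call, so most of the values that kept their side had none to lose.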

Other observations

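Outside the lists, the genes whose signals were most like the mean of the 33 over the 25 arrays were Ifi202b (r = 0.99), Trafd1 (r = 0.97), Ccrl2 (r = 0.97) and Tor3a (r = 0.96), a description over arrays that share doses and libraries. Over all 18193 genes, 62 had an r above 0.9.

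Macrophage markers did not move as a block. At 0.35 mM against 0 mM, Cd14, a co-receptor for bacterial lipopolysaccharide, rose (log2 0.66, SE 0.19, limma adjusted p = 0.0450), and Adgre1, a surface receptor of mature macrophages, fell (log2 -1.29, SE 0.30, adjusted p = 0.0177). Replicate 3 of 0 mM, where many of the 33 genes were high, had the lowest Adgre1 of the 0 mM arrays, 2.06 against 3.25 to 3.49. Fcgr1, a high-affinity Fc receptor, fell at 2.1 mM against 0 mM (log2 -1.38, SE 0.41, adjusted p = 0.0313) and rose at 3.5 mM against 2.8 mM (log2 1.72, SE 0.44, adjusted p = 0.0148). Spi1, a transcription factor of macrophages, fell at 2.8 mM against 0 mM (log2 -0.92, SE 0.26, adjusted p = 0.0276).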
